A study of Mus musculus with 12 samples.

Results

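In this series 50 genes of mitosis were followed across 4 groups of B16 cells, a mouse melanoma line. The set of 50 was named by gene symbol: the cyclins and kinases of mitotic entry, the spindle checkpoint, the kinetochore, kinesins, condensin and cytokinesis genes. Each symbol matched 1 of the 56093 entries of the count table, and all 50 were among the 14089 genes that passed a filter on low counts. The groups, of 3 RNA-seq libraries each, were shSdc1 cells with IFNγ, shRFP cells with IFNγ, shSdc1 cells and shRFP cells. An shSdc1 group carried a short hairpin RNA against Sdc1, which encodes the cell-surface heparan sulfate proteoglycan syndecan-1, and an shRFP group carried the control hairpin against RFP. IFNγ was given at 10 ng/ml for 24 h, so both IFNγ groups are single-time, single-dose measurements. Every group was transfected with a hairpin, the number of hairpins per target is not given in the sources used here, and a cell without one was not analysed here. Separate cultures for the 3 libraries are not stated by the labels. The p-values therefore measure only how these samples vary, and that variation may be technical.

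Entry into mitosis is driven by the kinase CDK1 with cyclins A and B, which WEE1 restrains and CDC25 phosphatases release. Chromosomes are then compacted by condensin, attached to the spindle at kinetochores under the watch of the spindle assembly checkpoint, and separated once the anaphase-promoting complex, with CDC20, has marked securin and cyclin B for breakdown. Transcripts of these genes accumulate late in the cell cycle, so in bulk RNA their level follows both the share of cells in G2 and mitosis and the RNA per such cell, and these cannot be told apart. Their promoters commonly hold a cell cycle homology region with the letters TTTGAA, which MuvB complexes bind as the repressor DREAM or as the activator with B-MYB and FOXM1, and CCAAT boxes bound by NF-Y.

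Promoter windows from RefSeq (GRCm38.p6), from 250 bases before to 50 bases after a gene's start, were found for 39 of the members, which held 42 windows. TTTGAA on either strand was present in 32 of the 42 windows (76.2%), and in 17.9% of all 32851 windows of the table. CCAAT on either strand was present in 33 (78.6%), against 37.4% of all windows. Both were present in 29 (69.0%), against 7.0% of all windows, and in 1 member window a TTTGAA and a CCAAT match shared a base. Of the 29 members with TTTGAA, 26 had a match that started within 60 bases before the start or after it. A match of letters is a description and not a bound site, and these counts carry no test. The stretches printed here run from 130 bases before to 30 bases after the start, 5′ to 3′ on the gene's strand, with both motifs in capitals: TTTGAA or its reverse complement TTCAAA, and the box CCAAT or its reverse complement ATTGG. They belong to 5 members whose knockdown effect differed with IFNγ (Cdca8, Racgap1, Cdk1, Ncapd2 and Top2a), to Bub3 and Ccnb2, which were lower in shSdc1 cells with and without IFNγ, and to Kif23, which was higher in both.
Cdca8: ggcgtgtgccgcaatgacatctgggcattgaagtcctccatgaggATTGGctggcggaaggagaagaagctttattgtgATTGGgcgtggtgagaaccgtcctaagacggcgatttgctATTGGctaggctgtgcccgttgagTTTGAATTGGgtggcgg
Racgap1: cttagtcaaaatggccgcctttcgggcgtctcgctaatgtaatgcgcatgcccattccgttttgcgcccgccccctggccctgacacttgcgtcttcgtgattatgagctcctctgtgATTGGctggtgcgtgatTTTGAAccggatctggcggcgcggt
Cdk1: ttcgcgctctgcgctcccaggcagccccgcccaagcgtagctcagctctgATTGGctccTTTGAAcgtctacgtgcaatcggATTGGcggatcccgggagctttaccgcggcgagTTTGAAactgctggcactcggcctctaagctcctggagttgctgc
Ncapd2: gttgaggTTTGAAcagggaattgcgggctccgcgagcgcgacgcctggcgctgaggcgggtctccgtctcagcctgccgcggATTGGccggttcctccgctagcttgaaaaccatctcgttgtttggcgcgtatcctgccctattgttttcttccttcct
Top2a: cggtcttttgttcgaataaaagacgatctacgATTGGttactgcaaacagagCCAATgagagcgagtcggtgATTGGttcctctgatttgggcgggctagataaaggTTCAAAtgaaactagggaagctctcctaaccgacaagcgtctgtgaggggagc
Bub3: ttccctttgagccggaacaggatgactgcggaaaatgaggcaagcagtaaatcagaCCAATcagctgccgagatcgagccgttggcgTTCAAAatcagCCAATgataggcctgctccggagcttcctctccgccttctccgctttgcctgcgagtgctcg
Ccnb2: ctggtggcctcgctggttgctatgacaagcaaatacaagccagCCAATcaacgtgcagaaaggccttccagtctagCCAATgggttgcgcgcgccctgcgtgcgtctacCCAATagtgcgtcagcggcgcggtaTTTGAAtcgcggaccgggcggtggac
Kif23: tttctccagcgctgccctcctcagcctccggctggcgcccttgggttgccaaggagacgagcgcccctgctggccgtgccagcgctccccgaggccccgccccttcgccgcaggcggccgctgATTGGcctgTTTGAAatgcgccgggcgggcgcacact
In GRCm38.p6 these stretches are at chr4:124936888-124937047 (minus strand) for Cdca8, chr15:99651627-99651786 (minus strand) for Racgap1, chr10:69352883-69353042 (minus strand) for Cdk1 and chr6:125191557-125191716 (minus strand) for Ncapd2. Top2a lies at chr11:99024160-99024319 (minus strand), Bub3 at chr7:131560240-131560399 (plus strand), Ccnb2 at chr9:70421525-70421684 (minus strand) and Kif23 at chr9:61946770-61946929 (minus strand). These 8 were picked by hand for printing, and all 8 hold both motifs, against 29 of the 42 member windows. Of other members with like calls, Cdc25b, lower in both settings, held CCAAT without TTTGAA. Anln, higher in both settings, held TTTGAA without CCAAT. In 6 of the 8 stretches a TTTGAA match lies near or past the start. That of Ncapd2 is near the far end of the stretch and that of Bub3 lies between a pair of CCAAT boxes.

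The libraries held 14337771 to 21548940 counts, and the members together took 0.922 to 1.03% of them. Sdc1 stood at 27.0, 25.1 and 25.4 CPM, counts scaled to library size by TMM, in shSdc1 cells with IFNγ, at 83.3, 79.6 and 103 CPM in shRFP cells with IFNγ, at 23.4, 22.1 and 25.7 CPM in shSdc1 cells and at 76.4, 73.9 and 75.9 CPM in shRFP cells, so the knockdown was present in each shSdc1 library. All 7 melanocyte markers were detected, with summed levels of 11747 to 13170, 16614 to 18170, 12940 to 13369 and 17245 to 17292 CPM in the groups in the order given above. Of 12 leukocyte markers 5 were at 0 in every library (Adgre1, Cd3e, Cd8a, Ms4a1 and Itgax), and the list, mostly Cd68, summed to 15.8 to 16.6, 5.79 to 8.52, 8.5 to 8.92 and 2.56 to 3.38 CPM in the same order. Of 10 stromal, endothelial and epithelial markers 4 were at 0 in every library, and the list stayed between 2.07 and 4.22 CPM. One library, shSdc1 replicate 3, held 4.79% of its counts in a single unnamed entry, against 0.0842 to 0.195% in the others, and CPM were scaled with that entry included.

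One library stood apart for part of the members. In shRFP cells with IFNγ, replicate 2 had the highest level of its group for 30 of the 50 members and the lowest for 14, among them the members with the widest spread between replicates: Cenpe, Cenpf, Smc2, Smc4 and Mki67. The within-group SD of these 5 was 0.171 to 0.204 on the log2 scale, against 0.0333 to 0.116 (median 0.0605) for the other 45; this split at 0.15 was made after the values were seen. They have transcripts of 4316 to 11130 bases with 39.66 to 46.56% GC. Over the 1258 genes tested with under 42% GC, a limit also chosen after the data were seen, the median log2 deviation from the mean of all libraries was -0.228 in that library, -0.075 and -0.001 in the other shRFP libraries with IFNγ, and -0.035 to 0.090 in the remaining 9. For the 10427 other genes it was 0.032 there. Of the 5 members Smc2 and Smc4 are under 42% GC, and Cenpe, Cenpf and Mki67 are above it. Of the 8 members under 42% GC, Bub1 and Ncapg were also lowest in that library, at 97.9 and 115.5 CPM. Ect2 and Hmmr lay within the range of the other two libraries of the group, Nusap1 stood at 115.7 CPM beside 116.8 and 116.9 CPM, and Mad2l1 was highest there, at 195.9 CPM. The part of GC content in the members' changes was not tested. Results that rest on this library are therefore given with and without it.

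**Figure D1:**
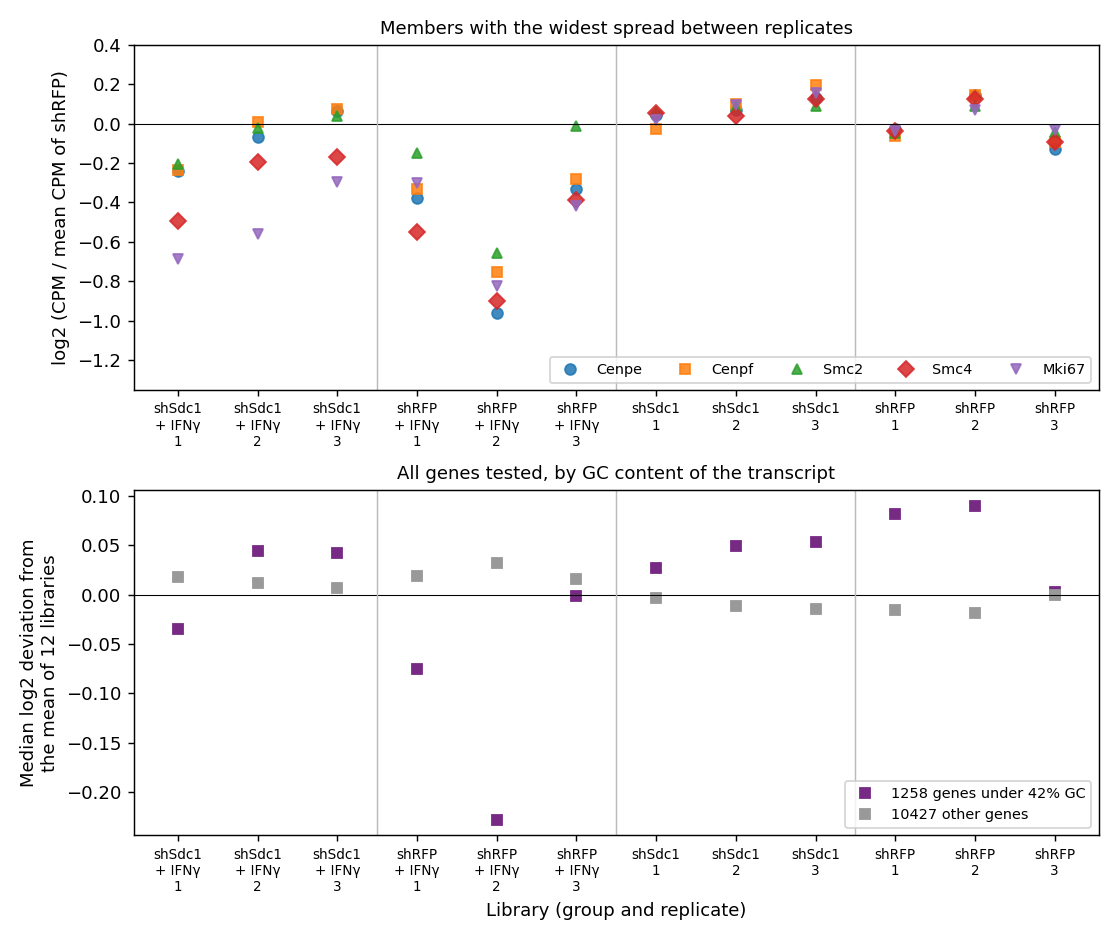
Levels of the 5 members with the widest spread between replicates (upper panel, log2 of CPM over the mean CPM of shRFP cells, 1 point per gene and library) and the median log2 deviation of genes under 42% GC and of all others (lower panel) in the 12 libraries. Replicate 2 of shRFP cells with IFNγ is the lowest library for all 5 genes and for genes under 42% GC (-0.228).

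Levels per kilobase of transcript, which allow comparison between genes, ranged in shRFP cells from 7.62 CPM per kb for Pttg1, the securin that holds separase inactive, to 175 CPM per kb for Top2a, the topoisomerase that untangles sister chromatids. Ncapd2 followed at 126 and Ccnb1 at 120 CPM per kb, while the long transcripts of Cenpe and Cenpf stood at 16.8 and 17.0 CPM per kb. Summed over the 50 members, the level was 9247, 9558 and 9643 CPM in shSdc1 cells with IFNγ, 9849, 9865 and 9598 CPM in shRFP cells with IFNγ, 10019, 10044 and 10107 CPM in shSdc1 cells and 9606, 9596 and 9557 CPM in shRFP cells. The summed level was highest in every shSdc1 library without IFNγ and did not overlap the other groups. With IFNγ, shSdc1 replicate 1 had the lowest total of all libraries, and replicates 2 and 3 lay within the range of the 6 shRFP libraries.

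**Figure D2:**
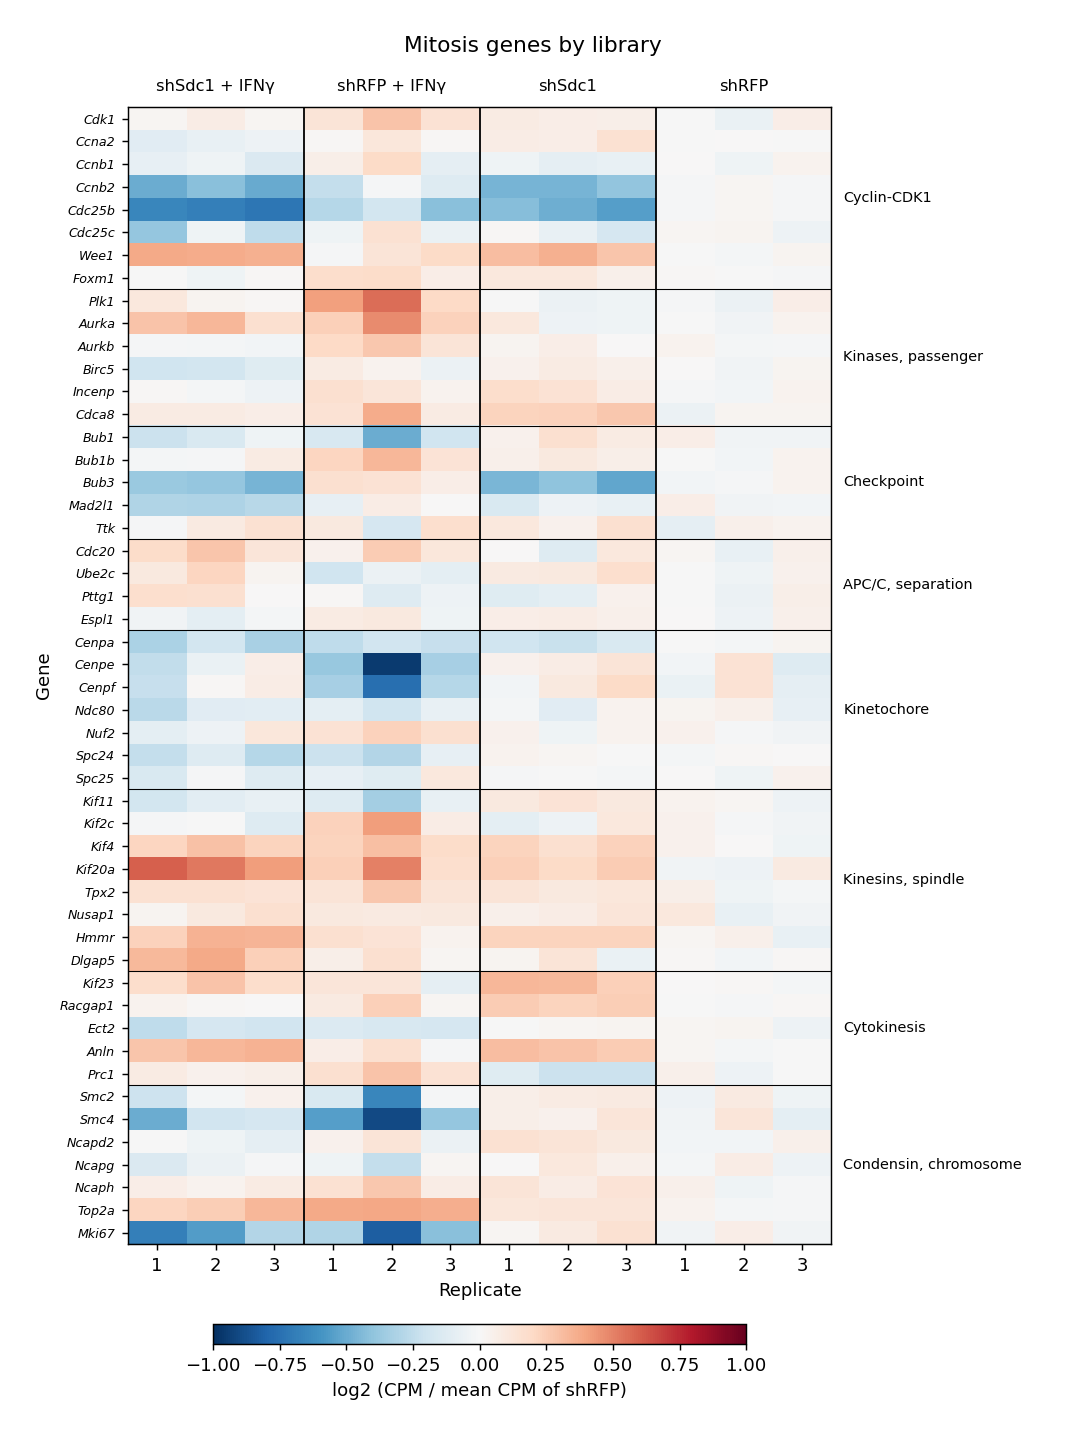
Levels of the 50 members in the 12 libraries, as log2 of CPM over the member's mean CPM in shRFP cells, grouped by role, with each group's 3 libraries side by side. Smc4 and Mki67 are low in all 6 libraries with IFNγ and Cenpe and Cenpf in the 3 shRFP libraries with IFNγ, all 4 lowest in replicate 2 of shRFP cells with IFNγ, and Bub3, Ccnb2 and Cdc25b are low in all 6 shSdc1 libraries.

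Without IFNγ, a minority of the members differed between knockdown and control, in both directions. In shSdc1 cells against shRFP cells 11 members were higher and 5 were lower at an edgeR adjusted p under 0.05, while 14.0% of all genes tested were called higher and 14.6% lower. The median log2 fold change of the 50 was 0.07, beside 0.00 for all genes tested. The cytokinesis genes held 3 of the 11 higher calls, among 5 members, and the spindle genes another 3 among 8. Errors of log2 fold changes are given as ± SE. The count of 11 higher fell to 7 without shRFP replicate 2 and was 15 without shRFP replicate 2 with IFNγ, a library that enters this comparison only through the shared scaling and estimate of spread.

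Among the regulators of CDK1, the inhibitor Wee1 was higher and an activator and a cyclin were lower. Wee1, the kinase that phosphorylates and restrains CDK1, had 66.2, 68.6 and 65.0 CPM in shSdc1 cells, against 53.4, 52.9 and 54.5 CPM in shRFP cells (log2 fold change 0.31 ± 0.05, edgeR adjusted p 0.00013). Cdc25b, a phosphatase that removes that mark, had 85.2, 81.4 and 78.0 CPM in shSdc1 cells, against 114, 116 and 114 CPM in shRFP cells (log2 fold change -0.49 ± 0.05, edgeR adjusted p 1.4e-06). Ccnb2, cyclin B2, had 96.7, 96.6 and 101 CPM in shSdc1 cells, against 132, 135 and 133 CPM in shRFP cells (log2 fold change -0.44 ± 0.05, edgeR adjusted p 2.7e-06). For each of the 3 the shSdc1 and shRFP libraries did not overlap. Cdk1 itself (0.07 ± 0.05, adjusted p 0.27), Ccnb1 (-0.07 ± 0.05, adjusted p 0.37) and Foxm1 (0.09 ± 0.04, adjusted p 0.1) did not pass, nor did Ccna2 and Cdc25c.

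Of the kinases and the chromosomal passenger complex, which corrects faulty spindle attachments, Cdca8 and Incenp were higher. Cdca8, the borealin subunit, had 113, 113 and 116 CPM in shSdc1 cells, against 92.8, 98.3 and 98.2 CPM in shRFP cells (log2 fold change 0.24 ± 0.06, edgeR adjusted p 0.0043). Plk1 (-0.03 ± 0.07, adjusted p 0.78) and Aurkb (0.03 ± 0.04, adjusted p 0.65) overlapped the shRFP libraries. In the spindle checkpoint the only call was on Bub3, which binds BUB1 and BUBR1 and brings them to kinetochores. It had 170.5, 177 and 163 CPM in shSdc1 cells, against 230.2, 232 and 240.4 CPM in shRFP cells (log2 fold change -0.46 ± 0.04, edgeR adjusted p 2.1e-07). Every shSdc1 library was far under the lowest shRFP library. Cdc20, the activator of the anaphase-promoting complex, did not pass (adjusted p 1.0), and neither did Ube2c, Pttg1 or Espl1.

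Of the 7 kinetochore and centromere members 1 was called. Cenpa, the histone H3 variant that marks centromeres, had 125, 123 and 129 CPM in shSdc1 cells, against 143, 142 and 146 CPM in shRFP cells (log2 fold change -0.19 ± 0.05, edgeR adjusted p 0.0036). Higher calls on spindle genes were Kif4, Kif20a and Hmmr, with log2 fold changes of 0.20 ± 0.05, 0.23 ± 0.07 and 0.22 ± 0.05. In cytokinesis both subunits of centralspindlin, the complex that bundles midzone microtubules, were higher, as was anillin, the scaffold of the contractile ring. Kif23 had 172, 172 and 161 CPM in shSdc1 cells, against 137, 138 and 135 CPM in shRFP cells (log2 fold change 0.30 ± 0.05, edgeR adjusted p 0.00032). Racgap1, its partner, had 324, 317 and 322 CPM in shSdc1 cells, against 270.1, 269.8 and 274 CPM in shRFP cells (log2 fold change 0.24 ± 0.05, edgeR adjusted p 0.00044). Anln had 516, 506 and 497 CPM in shSdc1 cells, against 422, 410.4 and 415 CPM in shRFP cells (log2 fold change 0.28 ± 0.04, edgeR adjusted p 2.8e-05). No library of one group reached the range of the other for these 3. Prc1, which crosslinks antiparallel microtubules of the midzone, was lower, with 122, 114 and 114 CPM in shSdc1 cells, against 137, 128 and 132 CPM in shRFP cells (log2 fold change -0.18 ± 0.05, edgeR adjusted p 0.007). Among the chromosome genes Top2a (0.12 ± 0.03, adjusted p 0.013) and Ncapd2 were higher, and Mki67 did not pass (0.09 ± 0.10, adjusted p 0.55). The calls on Incenp, Kif20a, Ncapd2 and Top2a ended without any 1 of 4, 4, 6 and 1 of the 12 libraries, with adjusted p up to 0.142, 0.0786, 0.14 and 0.0578. For each gene shRFP replicate 2 was among these libraries. The Ncapd2 call also ended with the replicate number as a block.

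With IFNγ, more members were lower than higher in knockdown cells. In shSdc1 cells with IFNγ against shRFP cells with IFNγ 10 members were higher and 18 were lower, beside 18.9% and 17.4% of all genes tested. The median over the 50 was -0.05, beside 0.02 for all genes. Lower calls took 7 of the 8 members of the CDK1 engine, with Wee1 the exception as a higher call, 4 of the 6 kinase and passenger members and 3 of the 5 checkpoint members. Without shRFP replicate 2 with IFNγ the counts were 9 higher and 13 lower, and 22 of the 28 calls were kept; Cdk1, Ccna2, Ccnb1, Cdc25c, Prc1 and Smc4 no longer passed. Without replicate 3 of the same group 9 were higher and 23 lower.

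In the engine of mitotic entry Wee1 was higher and the other 7 members were lower, 4 of which did not pass without shRFP replicate 2 with IFNγ. Cdc25b had 72.9, 71.3 and 69.1 CPM in shSdc1 cells with IFNγ, against 93.6, 101 and 85.4 CPM in shRFP cells with IFNγ (log2 fold change -0.39 ± 0.06, edgeR adjusted p 1.9e-05). Ccnb2 had 94.5, 99.6 and 94.1 CPM in shSdc1 cells with IFNγ, against 113, 133 and 122 CPM in shRFP cells with IFNγ (log2 fold change -0.35 ± 0.05, edgeR adjusted p 3.5e-05). Wee1 had 69.5, 69.1 and 68.6 CPM in shSdc1 cells with IFNγ, against 53.0, 58.6 and 61.2 CPM in shRFP cells with IFNγ (log2 fold change 0.26 ± 0.05, edgeR adjusted p 0.00063). The ranges of the paired groups were separate for all 3 genes. Foxm1, the transcription factor of late cell cycle genes, was lower at -0.16 ± 0.04 (adjusted p 0.0042). Cdk1 (-0.15 ± 0.05, adjusted p 0.015) and Ccnb1 (-0.15 ± 0.05, adjusted p 0.036) were lower too. Without shRFP replicate 2 with IFNγ, Cdk1 stood at -0.11 ± 0.04 (adjusted p 0.058), and for Ccnb1 the adjusted p reached 0.164 when single libraries were left out. For Ccnb1 and Cdc25c the ranges of the paired groups overlapped.

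Plk1, the polo kinase that acts from mitotic entry to cytokinesis, had 147, 138 and 137 CPM in shSdc1 cells with IFNγ, against 181, 201 and 156 CPM in shRFP cells with IFNγ (log2 fold change -0.35 ± 0.07, edgeR adjusted p 0.00036). Its shSdc1 libraries lay together, whereas the shRFP libraries were spread, and without the highest of them, replicate 2, the change was -0.27 ± 0.06 (adjusted p 0.001). Aurkb, the kinase of the passenger complex, was lower at -0.22 ± 0.04 (adjusted p 0.00054), as were Birc5 (-0.19 ± 0.04) and Incenp (-0.12 ± 0.04), while Aurka and Cdca8 did not pass. Bub3 had 181, 179 and 169 CPM in shSdc1 cells with IFNγ, against 262, 259 and 246 CPM in shRFP cells with IFNγ (log2 fold change -0.54 ± 0.04, edgeR adjusted p 2.3e-08). Mad2l1, the checkpoint protein that sequesters CDC20, had 151, 150.3 and 153 CPM in shSdc1 cells with IFNγ, against 176, 196 and 186 CPM in shRFP cells with IFNγ (log2 fold change -0.30 ± 0.05, edgeR adjusted p 6.4e-05). Each shSdc1 library was under each shRFP library for both genes, and Bub1b was lower as well at -0.21 ± 0.05. Of the genes of mitotic exit Ube2c, the ubiquitin-conjugating enzyme of the anaphase-promoting complex, was higher at 0.23 ± 0.05, and Cdc20 did not pass (0.06 ± 0.06, adjusted p 0.51).

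Higher calls with the largest changes fell on members with a wide spread. Cenpe, the kinesin that carries chromosomes to the spindle equator, had 112, 126 and 139 CPM in shSdc1 cells with IFNγ, against 102, 68.2 and 106 CPM in shRFP cells with IFNγ (log2 fold change 0.45 ± 0.11, edgeR adjusted p 0.0045). Cenpf, a large kinetochore protein, had 161, 190.2 and 199 CPM in shSdc1 cells with IFNγ, against 150.0, 112 and 156 CPM in shRFP cells with IFNγ (log2 fold change 0.40 ± 0.10, edgeR adjusted p 0.0047). Smc4, a core ATPase of condensin, had 207, 256 and 260.1 CPM in shSdc1 cells with IFNγ, against 199.8, 157 and 224 CPM in shRFP cells with IFNγ (log2 fold change 0.32 ± 0.10, edgeR adjusted p 0.016). Replicate 2 of shRFP cells with IFNγ was the lowest library for all 3, and the Smc4 ranges overlapped. Without that library the changes were 0.27 ± 0.08 for Cenpe (adjusted p 0.012), 0.25 ± 0.08 for Cenpf (adjusted p 0.024) and 0.18 ± 0.08 for Smc4, which then did not pass (adjusted p 0.095). The Smc4 call also ended without shSdc1 replicate 2 or 3 with IFNγ, and with DESeq2. Under 42% GC 30.1% of genes tested were higher and 8.4% lower in this comparison, against 19.9% and 20.9% of the others.

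Anln had 504, 524 and 528 CPM in shSdc1 cells with IFNγ, against 435, 466 and 413 CPM in shRFP cells with IFNγ (log2 fold change 0.24 ± 0.04, edgeR adjusted p 0.00012), again with no overlap. Other higher calls were Kif23 (0.16 ± 0.05), Kif20a (0.21 ± 0.07), Hmmr (0.19 ± 0.05) and Dlgap5 (0.23 ± 0.05), and Kif20a ranges overlapped. Lower calls outside the engine, kinases and checkpoint were Nuf2 (-0.19 ± 0.05), Kif2c (-0.29 ± 0.07), Prc1 (-0.14 ± 0.05) and Top2a (-0.11 ± 0.03, adjusted p 0.014). Top2a did not pass without shSdc1 replicate 1 or 2 with IFNγ, with adjusted p up to 0.0669. The calls on Incenp, Nuf2, Kif20a, Kif23 and Prc1 also ended without single libraries with IFNγ, at adjusted p up to 0.115, 0.0517, 0.144, 0.182 and 0.116. With the compared groups alone the calls on Ccnb1, Cdc25c, Incenp, Kif20a, Kif23 and Top2a ended too. Under upper-quartile scaling those on Ccnb1 and Incenp ended. Mki67, the proliferation marker that coats mitotic chromosomes, did not pass (-0.01 ± 0.10, adjusted p 0.97).

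**Figure D3:**
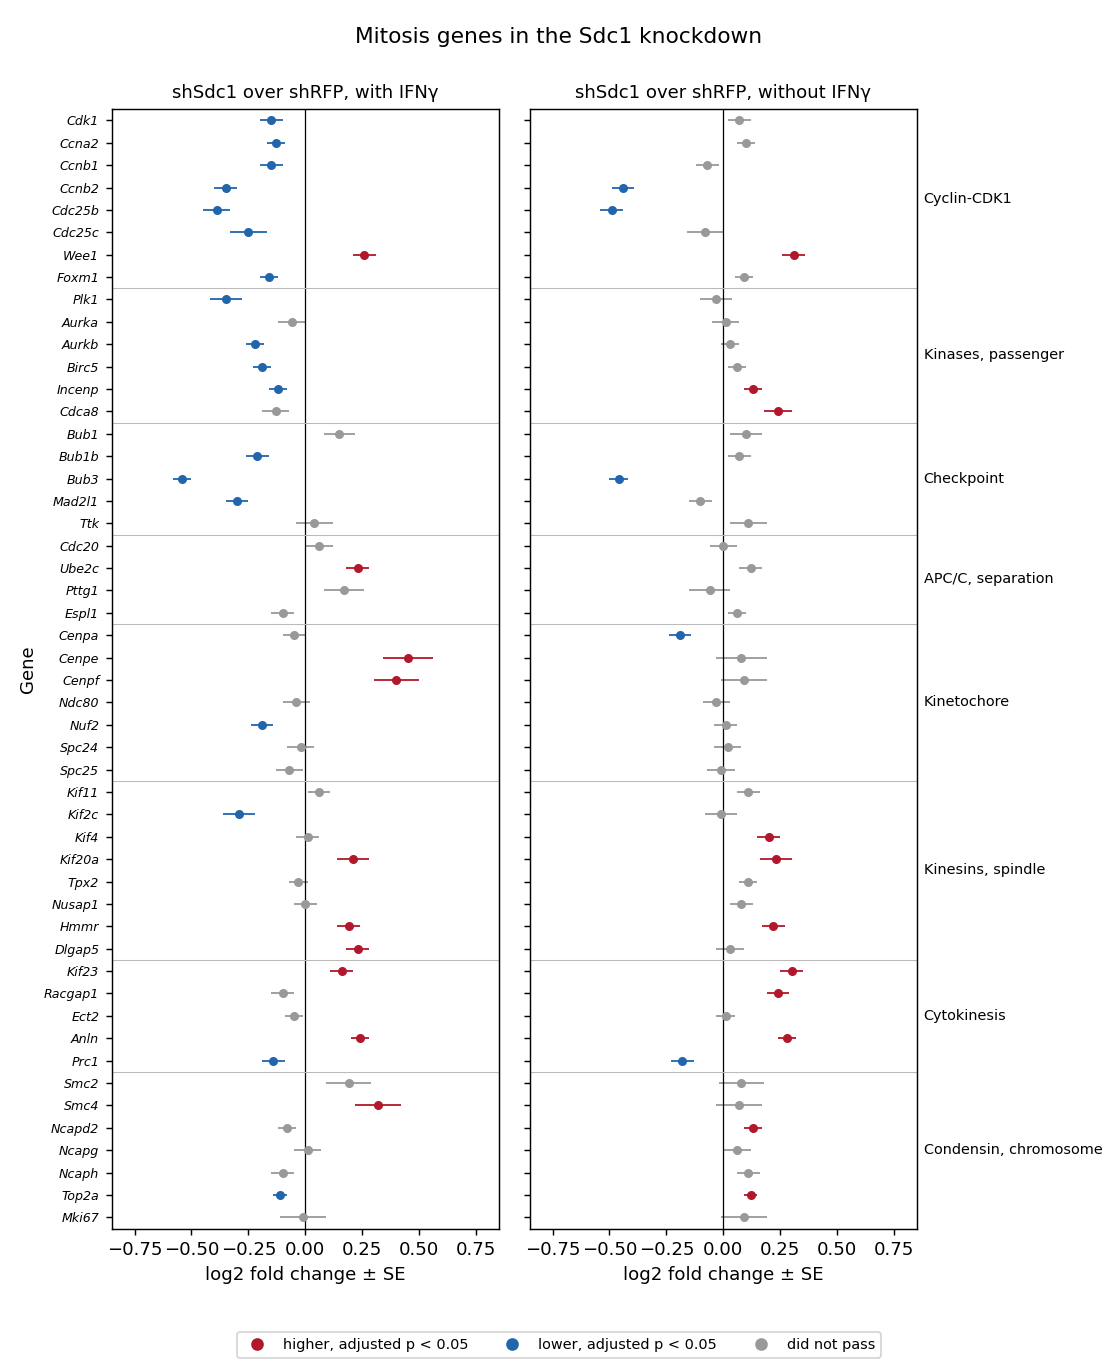
Log2 fold change ± SE of the 50 members in shSdc1 cells against shRFP cells, with IFNγ (left) and without (right), grouped by role and coloured by call. Bub3, Ccnb2 and Cdc25b lie well under 0 in both panels (-0.54, -0.35 and -0.39 with IFNγ), whereas Plk1, Aurkb and Foxm1 lie under 0 with IFNγ and within 0.09 of it without.

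The knockdown comparisons with and without IFNγ used different libraries, though they share the scaling and the estimate of spread. Members called lower in both were Bub3, Ccnb2, Cdc25b and Prc1, which are 4 of the 18 lower calls with IFNγ (22.2%) and 4 of the 5 without (80.0%). Members called higher in both were Anln, Hmmr, Kif20a, Kif23 and Wee1, 5 of the 10 with IFNγ and 5 of the 11 without (45.5%). Incenp and Top2a were called higher without IFNγ and lower with it. No member was called lower without and higher with IFNγ. Shared calls were not counted over all genes tested, so these shares cannot be read as particular to the members.

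In shRFP cells, levels with IFNγ were higher for several mitotic kinases and spindle genes and lower for Smc4, Mki67 and most of the kinetochore members. In shRFP cells with IFNγ against shRFP cells 16 members were higher and 10 lower, beside 17.2% and 14.4% of all genes tested. The median of the 50 was 0.06, beside -0.01 for all genes. Higher calls took 4 of the 6 kinase and passenger members and 4 of the 8 spindle members, and lower calls 4 of the 7 kinetochore members. Under upper-quartile scaling, which moved the median of all genes by -0.053, 11 were higher and 14 lower. Without shRFP replicate 2 with IFNγ 11 were higher and 9 lower, and the calls on Cdca8, Bub3, Nuf2, Spc24, Kif11, Kif2c and Ncaph ended; without replicate 3 there were 21 higher and 11 lower. This comparison shares shRFP libraries with the knockdown comparison without IFNγ and shRFP libraries with IFNγ with the other, so likeness between them is not independent.

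Cdk1 had 272, 303 and 275 CPM in shRFP cells with IFNγ, against 249, 238 and 260.0 CPM in shRFP cells (log2 fold change 0.19 ± 0.05, edgeR adjusted p 0.0037). Foxm1 was higher as well (0.14 ± 0.04, adjusted p 0.009), a call that ended under upper-quartile scaling, and Ccnb1 did not pass (0.06 ± 0.05, adjusted p 0.42). Cdc25b had 93.6, 101 and 85.4 CPM in shRFP cells with IFNγ, against 114, 116 and 114 CPM in shRFP cells (log2 fold change -0.29 ± 0.05, edgeR adjusted p 0.00043). Cdk1 was higher and its activator lower, each without overlap. Plk1 had 181, 201 and 156 CPM in shRFP cells with IFNγ, against 135, 130.3 and 143 CPM in shRFP cells (log2 fold change 0.40 ± 0.07, edgeR adjusted p 0.00013). Aurka, the kinase of centrosomes and spindle poles, had 139.7, 164 and 139 CPM in shRFP cells with IFNγ, against 118, 116 and 121 CPM in shRFP cells (log2 fold change 0.32 ± 0.06, edgeR adjusted p 0.00083). Aurkb was higher at 0.20 ± 0.04 (adjusted p 0.0015). Replicate 2 was the highest library with IFNγ for Plk1, Aurka and Aurkb, and without it Plk1 stood at 0.32 ± 0.06 (adjusted p 0.00032). In the checkpoint Bub1b (0.23 ± 0.05) and Bub3 (0.13 ± 0.04) were higher and Bub1, the kinase that recruits shugoshin to centromeres, was lower (-0.28 ± 0.07); the Bub3 call ended without shRFP replicate 1 or 2, with or without IFNγ, with adjusted p up to 0.11, with the compared groups alone, and under upper-quartile scaling, where the adjusted p was 0.227. Cdc20 did not pass (0.14 ± 0.06, adjusted p 0.11).

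The lower calls of largest change were on kinetochore and chromosome genes. Smc4 had 199.8, 157 and 224 CPM in shRFP cells with IFNγ, against 285, 319 and 273 CPM in shRFP cells (log2 fold change -0.60 ± 0.10, edgeR adjusted p 0.00012). Cenpe had 102, 68.2 and 106 CPM in shRFP cells with IFNγ, against 130.3, 146 and 121 CPM in shRFP cells (log2 fold change -0.53 ± 0.11, edgeR adjusted p 0.0015). Cenpf had 150.0, 112 and 156 CPM in shRFP cells with IFNγ, against 181, 209 and 177 CPM in shRFP cells (log2 fold change -0.44 ± 0.10, edgeR adjusted p 0.0025). All 3 were lower in each library with IFNγ, with replicate 2 lowest by far. Mki67 had 646, 451 and 597 CPM in shRFP cells with IFNγ, against 778, 836 and 780.1 CPM in shRFP cells (log2 fold change -0.50 ± 0.10, edgeR adjusted p 0.00072). Without replicate 2 the changes were smaller and still passed, at -0.46 ± 0.08 for Smc4, -0.35 ± 0.08 for Cenpe, -0.30 ± 0.08 for Cenpf and -0.36 ± 0.07 for Mki67 (adjusted p 0.00014, 0.0017, 0.0089 and 0.0011). Under 42% GC 459 of 1258 genes tested were lower in this comparison (36.5%) and 97 higher (7.7%), against 12.3% lower and 21.2% higher among the other 10427 genes, so genes of low GC content moved the same way as Smc4, which has 40.2% GC.

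Kif20a, a kinesin of the central spindle, had 154, 185 and 146 CPM in shRFP cells with IFNγ, against 127, 126 and 139 CPM in shRFP cells (log2 fold change 0.31 ± 0.07, edgeR adjusted p 0.002). Kif2c, a kinesin that depolymerises microtubules at centromeres, had 106, 121 and 95.4 CPM in shRFP cells with IFNγ, against 93.4, 89.8 and 88.4 CPM in shRFP cells (log2 fold change 0.25 ± 0.07, edgeR adjusted p 0.012), and without replicate 2 it did not pass (adjusted p 0.0742). Top2a had 1187, 1191 and 1176 CPM in shRFP cells with IFNγ, against 933, 901 and 902 CPM in shRFP cells (log2 fold change 0.38 ± 0.03, edgeR adjusted p 5.3e-08). For Top2a the 3 libraries of each group lay close together, and its SE was the smallest of the 50. Other higher calls were Kif4, Tpx2, Prc1, Nuf2, Cdca8 and Ncaph, with log2 fold changes of 0.17 to 0.23, and other lower calls were Cenpa, Spc24, Kif11 and Ect2, between -0.23 and -0.16.

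In shSdc1 cells, levels with IFNγ were lower for Mki67, Smc4 and genes of most roles, and higher for Aurka, Cdc20, Kif20a, Dlgap5, Prc1 and Top2a. In shSdc1 cells with IFNγ against shSdc1 cells 6 members were higher and 14 lower, beside 17.5% and 13.0% of all genes tested. The median of the 50 was -0.07, beside 0.00 for all genes. The libraries with IFNγ are those of the knockdown comparison with IFNγ, and the libraries without are those of the other. Without shRFP replicate 2 with IFNγ, which enters here only through the shared scaling and estimate of spread, 6 were higher and 17 lower.

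In the engine Cdc25b (-0.20 ± 0.06) and Ccna2 (-0.18 ± 0.04) were lower, and Cdk1 (-0.03 ± 0.05, adjusted p 0.64), Ccnb1 (-0.02 ± 0.05, adjusted p 0.82) and Foxm1 (-0.10 ± 0.04, adjusted p 0.058) did not pass. Aurka had 144, 149 and 132 CPM in shSdc1 cells with IFNγ, against 127, 115 and 115 CPM in shSdc1 cells (log2 fold change 0.25 ± 0.06, edgeR adjusted p 0.0051). Its levels with IFNγ were above every level without. Plk1 (0.08 ± 0.07, adjusted p 0.4) and Aurkb (-0.05 ± 0.04, adjusted p 0.42) did not pass, and the other passenger subunits Birc5 (-0.23 ± 0.04), Incenp (-0.15 ± 0.04) and Cdca8 (-0.16 ± 0.06) were lower. Bub1 had 119, 125 and 134 CPM in shSdc1 cells with IFNγ, against 142, 155 and 146 CPM in shSdc1 cells (log2 fold change -0.23 ± 0.07, edgeR adjusted p 0.018). Cdc20 had 169.5, 181 and 162 CPM in shSdc1 cells with IFNγ, against 150.0, 137 and 161 CPM in shSdc1 cells (log2 fold change 0.20 ± 0.06, edgeR adjusted p 0.025). Both were separate between the groups, but the Bub1 call ended without shSdc1 replicate 1 or 2 with IFNγ or shSdc1 replicate 2 (adjusted p up to 0.0864), and the Cdc20 call without replicate 1 or 2 of either group (adjusted p up to 0.155) and under upper-quartile scaling. Mad2l1 was lower at -0.20 ± 0.05. The calls on Cdc25b, Incenp and Cdca8 ended without shSdc1 replicate 1 and, for Incenp and Cdca8, without other libraries too, at adjusted p up to 0.0682, 0.0706 and 0.103.

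Spc24, a subunit of the NDC80 complex that holds microtubules, had 44.0, 47.4 and 42.5 CPM in shSdc1 cells with IFNγ, against 53.0, 52.4 and 51.7 CPM in shSdc1 cells (log2 fold change -0.23 ± 0.06, edgeR adjusted p 0.0055). Kif11, the kinesin that pushes spindle poles apart, had 221, 234 and 239 CPM in shSdc1 cells with IFNγ, against 269, 276 and 269 CPM in shSdc1 cells (log2 fold change -0.23 ± 0.05, edgeR adjusted p 0.003). Both were lower in every library with IFNγ. Kif20a had 197, 188 and 175 CPM in shSdc1 cells with IFNγ, against 154, 149 and 156 CPM in shSdc1 cells (log2 fold change 0.29 ± 0.07, edgeR adjusted p 0.0033). Dlgap5, which stabilises kinetochore microtubules, had 104, 108 and 97.6 CPM in shSdc1 cells with IFNγ, against 84.4, 90.6 and 79.0 CPM in shSdc1 cells (log2 fold change 0.28 ± 0.05, edgeR adjusted p 0.00058). Prc1 had 140.2, 137 and 138 CPM in shSdc1 cells with IFNγ, against 122, 114 and 114 CPM in shSdc1 cells (log2 fold change 0.24 ± 0.05, edgeR adjusted p 0.00066). Kif20a, Dlgap5 and Prc1 were higher in every library with IFNγ. Of the 8 spindle members 2 were higher and 1 lower, and of the 5 cytokinesis members 1 was higher and 2 were lower, as Racgap1 (-0.22 ± 0.05) and Ect2 (-0.22 ± 0.04), the exchange factor that activates RhoA at the division site, were lower. Mki67 had 496, 542 and 649.9 CPM in shSdc1 cells with IFNγ, against 808, 851 and 888 CPM in shSdc1 cells (log2 fold change -0.59 ± 0.10, edgeR adjusted p 0.00013). Smc4 had 207, 256 and 260.1 CPM in shSdc1 cells with IFNγ, against 304, 300.4 and 318 CPM in shSdc1 cells (log2 fold change -0.35 ± 0.10, edgeR adjusted p 0.0098). Both fell without overlap; the Smc4 call ended without shSdc1 replicate 1 with IFNγ (adjusted p 0.0685). Ncapd2 was lower at -0.17 ± 0.04 and Top2a higher at 0.15 ± 0.03 (adjusted p 0.0024).

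**Figure D4:**
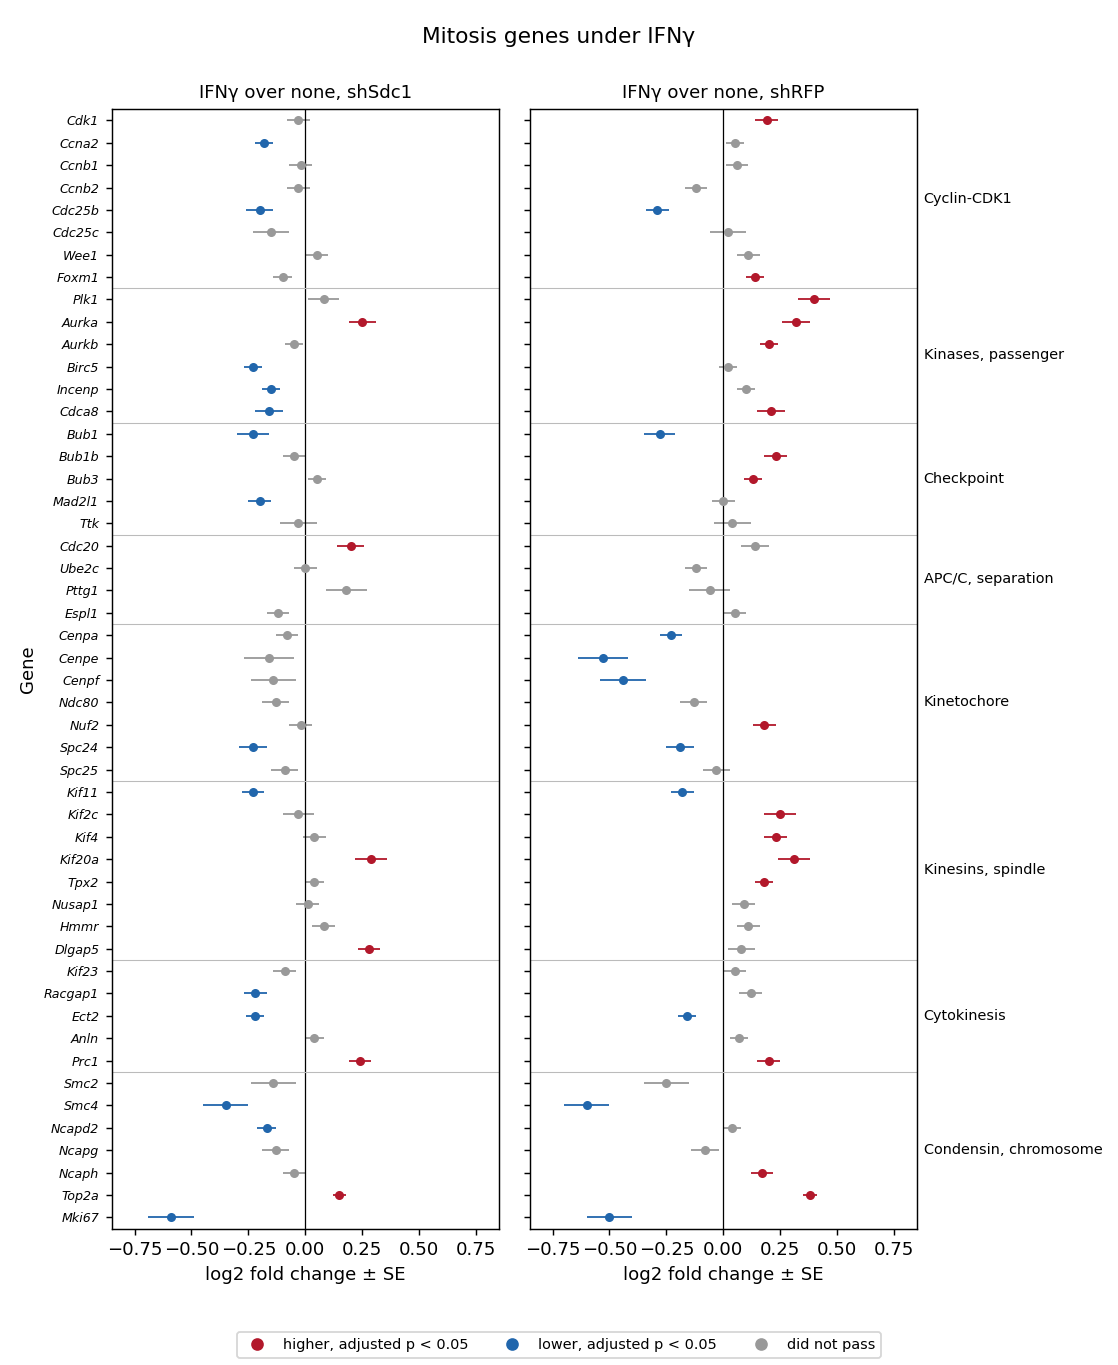
Log2 fold change ± SE of the 50 members with IFNγ against none, in shSdc1 cells (left) and shRFP cells (right), grouped by role and coloured by call. Mki67 and Smc4 lie under 0 in both panels (-0.59 and -0.35 in shSdc1 cells), Kif20a and Aurka above 0 in both (0.29 and 0.25 in shSdc1 cells), and Plk1 at 0.08 in shSdc1 cells and 0.40 in shRFP cells.

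Whether the knockdown effect differed with IFNγ was tested as the interaction, the log2 fold change of shSdc1 over shRFP with IFNγ minus that without. Of the 50 members 12 had a negative interaction and 0 a positive one, beside 5.15% and 4.58% of all genes tested; the median of the 50 was -0.07, beside 0.02 for all genes. With DESeq2 15 were negative and 0 positive, and with limma-voom 13 and 0. The passenger complex and its kinases held 5 of the 12, among 6 members, and the other 7 were Cdk1, Ccna2, Foxm1, Bub1b, Racgap1, Ncapd2 and Top2a. Without shRFP replicate 2 with IFNγ 10 were negative, Cdk1 and Plk1 being lost; without replicate 3 of that group 17 were negative and 1, Cenpe, was positive. Promoter windows were found for 8 of the 12, of which 7 held TTTGAA and 7 held CCAAT. Of all 42 member windows 76.2% held TTTGAA and 78.6% CCAAT, so these counts do not set the 12 apart.

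Cdca8 had 102, 102 and 101 CPM in shSdc1 cells with IFNγ, 106, 125 and 102 CPM in shRFP cells with IFNγ, 113, 113 and 116 CPM in shSdc1 cells and 92.8, 98.3 and 98.2 CPM in shRFP cells, for an interaction of -0.37 ± 0.08 (edgeR adjusted p 0.0095). Racgap1 had 279, 274 and 273 CPM in shSdc1 cells with IFNγ, 289, 319 and 275 CPM in shRFP cells with IFNγ, 324, 317 and 322 CPM in shSdc1 cells and 270.1, 269.8 and 274 CPM in shRFP cells, for an interaction of -0.34 ± 0.06 (edgeR adjusted p 0.0028). In both genes the shSdc1 libraries without IFNγ stood above every shRFP library without it, and with IFNγ the shSdc1 libraries lay close to the lowest shRFP library. Plk1 had 147, 138 and 137 CPM in shSdc1 cells with IFNγ, 181, 201 and 156 CPM in shRFP cells with IFNγ, 136, 131 and 132 CPM in shSdc1 cells and 135, 130.3 and 143 CPM in shRFP cells, for an interaction of -0.32 ± 0.09 (edgeR adjusted p 0.037). Bub1b, the BUBR1 kinase-like subunit of the checkpoint complex, had 181, 182 and 194 CPM in shSdc1 cells with IFNγ, 213, 231 and 202 CPM in shRFP cells with IFNγ, 189.6, 196 and 191 CPM in shSdc1 cells and 182, 180.0 and 187 CPM in shRFP cells, for an interaction of -0.28 ± 0.07 (edgeR adjusted p 0.014). Plk1 and Bub1b were high in shRFP cells with IFNγ alone, and the other 3 groups lay close together. Incenp, the scaffold of the passenger complex, had 199, 195 and 191 CPM in shSdc1 cells with IFNγ, 220.5, 215 and 202 CPM in shRFP cells with IFNγ, 223, 218 and 208 CPM in shSdc1 cells and 196, 194 and 202 CPM in shRFP cells, for an interaction of -0.26 ± 0.06 (edgeR adjusted p 0.013). Incenp was higher in shSdc1 cells and in shRFP cells with IFNγ than in the other two groups, though the change with IFNγ in shRFP cells did not pass (adjusted p 0.073). The Plk1 interaction did not pass without any 1 of 8 of the 12 libraries (adjusted p up to 0.0971); without shRFP replicate 2 with IFNγ it was -0.24 ± 0.08 (adjusted p 0.061).

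The remaining interactions were -0.25 ± 0.06 for Aurkb, -0.25 ± 0.06 for Birc5, -0.25 ± 0.06 for Foxm1, -0.23 ± 0.05 for Top2a, -0.23 ± 0.06 for Ccna2, -0.22 ± 0.06 for Cdk1 and -0.21 ± 0.06 for Ncapd2 (edgeR adjusted p 0.015, 0.017, 0.0098, 0.0057, 0.021, 0.037 and 0.037). The Cdk1 interaction did not pass without any 1 of 8 of the 12 libraries (adjusted p up to 0.102), nor that of Ncapd2 without any 1 of 7 (up to 0.0982). That of Ncapd2 also ended under upper-quartile scaling, and that of Ccna2 without shSdc1 replicate 1 with IFNγ (adjusted p 0.0529). Ccnb1 (-0.08 ± 0.08), Cdc20 (0.06 ± 0.09) and Mki67 (-0.09 ± 0.14) did not pass, at adjusted p 0.55, 0.74 and 0.72. Bub3 (-0.08 ± 0.06), Ccnb2 (0.09 ± 0.07), Cdc25b (0.10 ± 0.08) and Wee1 (-0.05 ± 0.07), which were called in the same direction in both settings, did not pass either. Under 42% GC 6.7% of genes had a positive interaction and 1.9% a negative one, against 4.9% and 6.3% at 42% GC or more. None of the 12 members is under 42% GC, so all 12 lie among the 42 members at or above it. Across the 50 members the interaction had a Spearman correlation of -0.36 with GC content, beside -0.13 over 11685 genes tested. The part of GC content in these interactions was not tested.

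**Figure D5:**
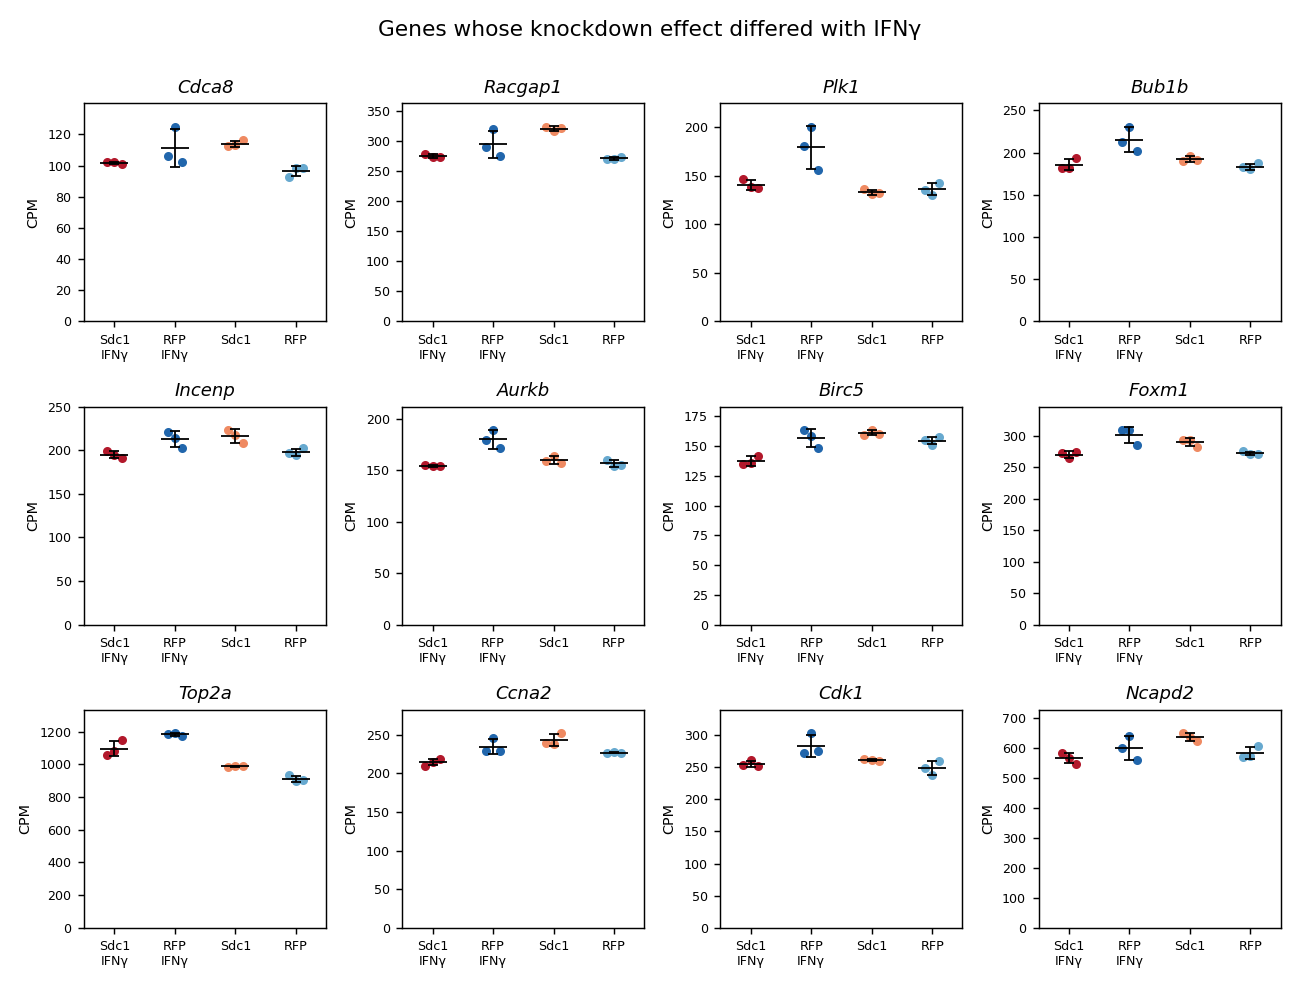
Levels of members with a negative interaction in the 4 groups, in CPM, with 1 point per library, a line at the mean of 3 libraries and error bars of 1 SD. For Cdca8 the mean was 102 CPM in shSdc1 cells with IFNγ, 111 CPM in shRFP cells with IFNγ, 114 CPM in shSdc1 cells and 96.5 CPM in shRFP cells.

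Other genes of the cell cycle were counted from lists that were drawn up with results of these data known. Their counts stand beside the shares of all genes called higher and lower, which were 18.9% and 17.4% for the knockdown with IFNγ, 14.0% and 14.6% without, 17.5% and 13.0% for IFNγ in shSdc1 cells and 17.2% and 14.4% in shRFP cells. Among 30 further kinetochore genes 4 were higher (13.3%) and 3 lower (10.0%) in shSdc1 cells with IFNγ against shRFP cells with IFNγ, and 2 and 2 without IFNγ (6.7% each), all under the shares of all genes. Among 26 further spindle and centrosome genes the knockdown gave 6 higher (23.1%) and 4 lower (15.4%) with IFNγ, and 6 higher (23.1%) and 0 lower without. Among 25 further checkpoint, cohesion and entry genes it gave 3 higher (12%) and 8 lower (32.0%) with IFNγ, and 3 (12%) and 2 (8.0%) without. With IFNγ against none, the kinetochore list had 1 higher (3.3%) and 7 lower (23.3%) in shSdc1 cells, and 3 higher (10.0%) and 7 lower (23.3%) in shRFP cells. The spindle list had 2 higher (7.7%) and 3 lower (11.5%) in shSdc1 cells, and 4 (15.4%) and 6 (23.1%) in shRFP cells. The checkpoint, cohesion and entry list had 1 higher (4.0%) and 13 lower (52.0%) in shSdc1 cells, and 3 (12%) and 7 (28.0%) in shRFP cells. Mad1l1, the partner that holds MAD2 at kinetochores, averaged 38.4 ± 2.06 CPM in shSdc1 cells with IFNγ and 62.8 ± 4.49 CPM in shRFP cells with IFNγ, and 44.8 ± 0.779 CPM in shSdc1 cells and 64.2 ± 3.92 CPM in shRFP cells (SD, n = 3 in each group; log2 fold changes -0.71 ± 0.06 and -0.52 ± 0.06, edgeR adjusted p 5.9e-08 and 3.2e-06). Of 16 subunits and partners of the anaphase-promoting complex 1 was higher (6.2%) and 2 were lower (12.5%) with IFNγ, and 0 and 1 (6.2%) without. With IFNγ against none 0 were higher and 3 lower (18.8%) in shSdc1 cells, and likewise in shRFP cells.

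DNA replication genes act earlier in the cycle. Of 27, 0 were higher and 17 lower (63.0%) in shSdc1 cells with IFNγ against shRFP cells with IFNγ, beside 17.4% of all genes lower, and 5 were higher (18.5%) and 1 lower (3.7%) without IFNγ. With IFNγ against none 2 were higher (7.4%) and 6 lower (22.2%) in shSdc1 cells, and 16 were higher (59.3%) and 0 lower in shRFP cells, beside 17.2% of all genes higher there. The interaction was negative for 11 of the 27 (40.7%) and positive for 0, beside 5.15% and 4.58% of all genes. Pcna, the sliding clamp of DNA polymerases, averaged 502 ± 7.29 CPM in shSdc1 cells with IFNγ, 627 ± 29.1 CPM in shRFP cells with IFNγ, 564 ± 16.6 CPM in shSdc1 cells and 551 ± 18.5 CPM in shRFP cells, for an interaction of -0.35 ± 0.06 (edgeR adjusted p 0.0007). Pcna was highest in shRFP cells with IFNγ and lowest in shSdc1 cells with IFNγ.

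Of 17 MuvB, B-MYB and E2F genes tested the interaction was negative for 5 (29.4%) and positive for 0, beside 5.15% and 4.58% of all genes. Mybl2, the B-MYB that joins MuvB at mitotic promoters, had an interaction of -0.34 ± 0.08 (edgeR adjusted p 0.014), with means of 71.5 ± 2.44 CPM in shSdc1 cells with IFNγ, 79.9 ± 1.32 CPM in shRFP cells with IFNγ, 79.5 ± 2.45 CPM in shSdc1 cells and 70.6 ± 6.63 CPM in shRFP cells. Rbl2, the p130 pocket protein of DREAM, was lower in shSdc1 cells with IFNγ (-0.38 ± 0.05) and without (-0.53 ± 0.05). Of 13 G1 cyclins, CDKs and CDK inhibitors tested, 4 were higher and 4 lower (30.8% each) by knockdown with IFNγ, and 5 (38.5%) and 3 (23.1%) without. The interaction was negative for 3 of these 13 (23.1%) and positive for 0. Ccnd1, cyclin D1, averaged 234 ± 7.49 CPM in shSdc1 cells with IFNγ and 95.6 ± 4.64 CPM in shRFP cells with IFNγ, and 244 ± 2.36 CPM in shSdc1 cells and 90.9 ± 7.93 CPM in shRFP cells (log2 fold changes 1.29 ± 0.06 and 1.43 ± 0.06). Cdk2 averaged 275 ± 22.4 CPM in shSdc1 cells with IFNγ and 543 ± 24.0 CPM in shRFP cells with IFNγ, and 294 ± 1.96 CPM in shSdc1 cells and 591 ± 10.4 CPM in shRFP cells (-0.98 ± 0.05 and -1.01 ± 0.05). Both changes were larger than that of any of the 50 members. Cdkn1a, the CDK inhibitor p21, was higher with IFNγ in shSdc1 cells (0.55 ± 0.08) and in shRFP cells (0.33 ± 0.08).

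Some member counts may include reads of other transcripts, or lack reads from stretches shared with them. Exons of Ccna2, Kif20a, Kif4, Ncapg and Prc1 share 431, 979, 684, 701 and 670 identical bases with exons of the overlapping genes Exosc9, Cdc23, Pdzd11, Lcorl and Rccd1, which stood at 8.05 to 43.9% of the member's level. The strand setting of the counting is not given in the sources used here. The values of these 5 are therefore uncertain. The transcribed pseudogene 2700099C18Rik, 95.05% identical to Ndc80 over 303 bases, stood at 16.7% of the Ndc80 level. Processed copies of Ccnb1, Mad2l1, Mki67 and Racgap1 stood at under 1% of their level.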

How the data were processed

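The authors deposited 1 table of raw counts per gene for the 12 libraries, whole numbers with no normalization. Per the labels' protocols, libraries were made with an mRNA kit and sequenced paired-end on an Illumina HiSeq. GRCm39 is the build, and HTSeq, HISAT2 2.0.5 and Trimmomatic are the tools, per the submitters' processing notes. Neither strand setting nor annotation is given in the sources used here. Groups followed the labels. Symbols and transcripts came from GENCODE M21 (GRCm38), which named 52083 of 56093 entries; 677 were assembled loci. The files' coordinates were not used.

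Counts were scaled by TMM and filtered with filterByExpr (minimum count 10, minimum total 15), which kept 14089 of 27472 genes with a count. The 4 groups were fitted together as a quasi-likelihood model in edgeR 4.0.16 (R 4.3.3; 8 residual degrees of freedom, common biological coefficient of variation 0.0633, prior count 0.125). Two-sided p-values were adjusted (Benjamini-Hochberg) across every gene tested, with a threshold of 0.05. The SE is the size of the log2 fold change over the square root of F. Sample values are named for the 5 highest and 5 lowest members among those that passed in each comparison, up to 5 each way for the interaction, and for 8 central members; up to 3 genes of a further list could be named. GC content and length are those of the longest protein-coding transcript, known for 11685 of the genes tested (82.9%). Copies were searched with BLAST 2.17.0 at 95% identity over at least 200 bases.

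Members and lists were chosen with earlier results of these data known. Alternatives used DESeq2 1.42.0 and limma 3.58.1, other scalings and filters, the compared groups alone, a replicate block, a fold minimum of 1.5, a fit without assembled loci and the 1 dominant entry, and each library left out. The steps were also run on simulated counts with the same spread for every gene. Recovery was required there only of changes larger than most of those reported here, so the run does not cover these.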

Additional observations from a re-analysis of the deposited data

Results flagged for a closer look

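The knockdown effect differed with IFNγ, by the interaction term of the edgeR model over all 12 libraries, for 12 of the 50 members, all in the negative direction; for all genes tested 5.15% of 14089 were negative. Values are log2 interactions, the knockdown effect with IFNγ minus that without.

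Of the kinases and the passenger complex, the values were -0.32 for Plk1, -0.25 for Aurkb, -0.25 for Birc5, -0.26 for Incenp and -0.37 for Cdca8. In the engine of mitotic entry they were -0.22 for Cdk1, -0.23 for Ccna2 and -0.25 for Foxm1. The others were -0.28 for the checkpoint gene Bub1b, -0.34 for the centralspindlin gene Racgap1, -0.21 for the condensin gene Ncapd2 and -0.23 for Top2a. Of these 12, Cdca8, Incenp, Racgap1, Ncapd2 and Top2a were called higher by knockdown without IFNγ, and Cdk1, Foxm1, Plk1, Aurkb, Cdca8, Bub1b and Top2a were called higher by IFNγ in shRFP cells; Cdca8 and Top2a were in both sets, Ccna2 and Birc5 in neither. With groups of 3 libraries, single samples were not tested as outliers.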

How the results depend on the processing

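Beside a minimum on the fold, the interaction had 20 alternatives and the pairs of groups had 21; calls that held in all of these were 17 of 28 for the knockdown with IFNγ, 12 of 16 without, 14 of 20 for IFNγ in shSdc1 cells, 18 of 26 in shRFP cells and 8 of 12 for the interaction, where Cdk1, Ccna2, Plk1 and Ncapd2 were lost.

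A minimum of 1.5-fold left 0 members higher or lower for the knockdown in either setting, 0 higher and 1 lower with IFNγ in shSdc1 cells (Mki67) and in shRFP cells (Smc4), and 0 lower interactions. Upper-quartile scaling gave a median of 0.004 for IFNγ in shRFP cells and -0.108 in shSdc1 cells. Without a filter 3 interactions were positive (Smc4, Cenpe and Cenpf); the cause was not tested.

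Leaving out 1 library at a time gave 7 to 10 higher, 13 to 23 lower and medians of -0.086 to -0.042 for the knockdown with IFNγ, and 7 to 15, 5 and 0.058 to 0.080 without. It gave 5 to 6, 11 to 17 and -0.075 to -0.055 for IFNγ in shSdc1 cells, 11 to 21, 8 to 11 and 0.028 to 0.095 in shRFP cells, and 0 to 1, 9 to 17 and -0.105 to -0.064 for the interaction.

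Of the called and the 8 central members, those that changed sign were not called; sign changes of other members that were not called, such as Smc2, were not tallied. Cdc20 by knockdown without IFNγ was 0.005 with DESeq2 size factors, 0.001 with upper-quartile scaling, 0.006 with the Wald test, 0.003 without a filter and -0.056 to 0.058 without single libraries. Mki67 by knockdown with IFNγ was 0.007 with upper-quartile scaling, 0.001 with limma-voom and -0.154 to 0.098 without single libraries. Without single libraries Plk1 by knockdown without IFNγ ran from -0.062 to 0.003, Ccnb1 with IFNγ from -0.042 to 0.005 in shSdc1 cells and from -0.007 to 0.132 in shRFP cells, and the interactions of Mki67 from -0.246 to 0.011 and of Cdc20 from -0.005 to 0.108.

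With the replicate number as a block 10 members were higher by knockdown without IFNγ and 9 interactions were negative (Cdk1, Plk1 and Ncapd2 were lost); other counts were those of the model without it. Over the genes tested, deviations of same-numbered libraries from their group means correlated by -0.0677 to 0.0326. These values show no strong shared deviation, but cannot tell whether the libraries were made in matched sets. Counts ran from 175 to 20466 per member and library. Pttg1 had the lowest, and the lowest counts of Cdc25c, Ttk, Spc24 and Wee1 were 414, 620, 638 and 788. The part of counting error in the spread of these members was not tested.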
